A study of Mus musculus with 8 samples.

Results

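The genes described here encode the protein subunits of the mitochondrial ribosome, measured here as RNA in mouse spleen CD4 T cells on day 2 of their differentiation in culture into pathogenic Th17 cells, a kind of helper T cell linked to autoimmune inflammation. They are the protein-coding genes of the deposited count table whose symbols begin with Mrpl (large subunit) or Mrps (small subunit) followed by a digit. The rule found 78 genes among 54532, of which 49 carry a large-subunit symbol and 29 a small-subunit symbol, and it left out 5 processed pseudogenes with matching names. There were 4 libraries with the genotype label wild type and 4 with the label knockout for Cyp1b1, the gene of the enzyme cytochrome P450 1B1, and both groups went through the same culture. The labels give no strain, age or sex, do not say how the knockout was made, and are silent on whether each replicate is an animal or culture of its own. The p-values thus reflect the spread among these libraries alone, and that spread may be technical. The series title asks what the enzyme does for these cells and for their mitochondria.

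The mitochondrial ribosome translates the few proteins encoded by mitochondrial DNA, all of them parts of the respiratory chain and of ATP synthase. Its protein subunits are encoded in the nucleus, made in the cytosol and imported, while its RNAs come from mitochondrial DNA, so that assembly needs products of both genomes. Part of the subunits have a counterpart in the bacterial ribosome, and the others occur in mitochondria only. T cells enlarge their mitochondrial mass and raise mitochondrial translation when they are activated. Symbol and place differ for some genes: the proteins of Mrps18a and Mrps30 sit in the large subunit, and that of Mrps36 is known as a part of the alpha-ketoglutarate dehydrogenase complex rather than of the ribosome.

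The members lay on 17 chromosomes, with 11 genes on chromosome 11 and 8 on chromosome 17, and 33 of the 78 (42.3%) had another coding gene that started within 1000 bases on the opposite strand. Among the 11908 coding genes tested, 16.8% had such a head-to-head neighbour. RefSeq promoter windows on GRCm38.p6, from 250 bases before to 50 after the start (300 bases), were at hand for 69 of the 78 members, as 75 windows. These windows were searched on both strands for exact letters. CCGGAAG, the binding motif of ETS factors, was in 34.7% of the member windows, in 8.86% of all 32851 windows and in 17.8% of the 12065 windows of tested coding genes. AAGATGGCG, the YY1 motif, was in 10.7% of the member windows against 1.4% and 3.04%, and GCGCATGC, the core of the NRF1 motif, was in 10.7% against 2.71% and 5.28%. The SP factor motif GGGCGG was in 52.0% of the member windows, which lay between its shares in all windows (35.7%) and in windows of tested coding genes (62.2%). The E-box CACGTG was in 9.33% of the member windows against 7.15% and 9.98%, the CRE motif TGACGTCA in 2.67% against 1.79% and 3.08%, and the TATA motif TATAAA in 6.67% against 13.6% and 6.98%. The composite CHOP-ATF4 letters TTGCATCA were in none of the 75 member windows, in 0.895% of all windows and in 0.638% of those of tested coding genes. The letters GCGCATGC and their reverse GCATGCGC overlap each other at some places, and a match describes the letters, not a bound site.

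The 4 windows that follow are shown because they belong to members whose level differed between labels and carry 1 of these motifs: the large-subunit genes Mrpl27 and Mrpl51 for the ETS motif, the small-subunit gene Mrps11 for YY1 and the large-subunit gene Mrpl32 for NRF1. Each is printed on the strand of its gene, from 5′ to 3′, in lower case, with the named motif or its reverse in capitals and other motifs left in lower case. Mrpl27 lies at chr11:94653541-94653840 on the plus strand, with the motif at position -55 from the RefSeq start. Mrpl51 lies at chr6:125191950-125192249 on the plus strand, with the motif at position -90 from a RefSeq start that is 399 bases from the start in the deposited table. Mrps11 lies at chr7:78782881-78783180 on the plus strand, where the reverse letters CGCCATCTT stand at position -108. Mrpl32 lies at chr13:14612988-14613287 on the minus strand, with matches at positions -87, -85, -66 and -22, of which the first pair overlap.
Mrpl27: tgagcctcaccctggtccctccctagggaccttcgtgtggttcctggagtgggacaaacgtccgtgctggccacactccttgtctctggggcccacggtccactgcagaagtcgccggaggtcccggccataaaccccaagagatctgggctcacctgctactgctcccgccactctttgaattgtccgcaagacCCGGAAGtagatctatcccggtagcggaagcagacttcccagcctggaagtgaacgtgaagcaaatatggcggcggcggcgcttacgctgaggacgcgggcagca
Mrpl51: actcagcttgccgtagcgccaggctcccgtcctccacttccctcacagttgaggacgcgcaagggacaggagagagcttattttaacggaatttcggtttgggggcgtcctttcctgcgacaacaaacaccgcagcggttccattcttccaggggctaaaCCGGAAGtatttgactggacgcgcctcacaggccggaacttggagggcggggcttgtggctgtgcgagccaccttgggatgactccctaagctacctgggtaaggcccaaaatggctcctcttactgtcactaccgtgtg
Mrps11: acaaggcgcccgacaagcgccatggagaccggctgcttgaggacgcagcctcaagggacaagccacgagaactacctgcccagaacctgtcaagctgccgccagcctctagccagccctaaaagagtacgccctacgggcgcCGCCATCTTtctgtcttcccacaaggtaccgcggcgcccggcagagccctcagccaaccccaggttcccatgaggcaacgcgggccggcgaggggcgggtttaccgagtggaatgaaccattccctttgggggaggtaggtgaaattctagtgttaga
Mrpl32: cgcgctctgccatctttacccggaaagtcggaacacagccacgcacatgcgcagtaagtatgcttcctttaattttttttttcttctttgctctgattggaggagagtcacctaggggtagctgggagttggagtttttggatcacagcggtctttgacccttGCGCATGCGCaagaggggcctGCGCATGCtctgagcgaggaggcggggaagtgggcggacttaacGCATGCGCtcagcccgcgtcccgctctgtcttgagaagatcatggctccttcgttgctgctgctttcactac

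Cyp1b1 went against the label. It stood at 4.36 ± 0.432 CPM (counts relative to library size, scaled by TMM, mean ± SD, n = 4) in the libraries labelled wild type and at 184.8 ± 47.9 in those labelled knockout, which was 41.8-fold higher (log2 fold change 5.39), and counts per gene do not resolve exons. Directions are therefore given as between labels. Total counts ran from 8918342 to 15667313 per library. The markers of CD4 T cells summed to 2691.8 CPM under the wild type label and 2853.1 under the knockout label, and the Th17 markers to 856.5 and 755.6. All 6 B cell markers were called lower, with a summed level of 138.3 to 206.6 CPM under the wild type label and 81.1 to 95 under the knockout label. The 6 dendritic and myeloid markers summed to 37.9 and 19.2. Most of this sum came from Flt3 (23.9 and 11.3 CPM) and Cd68 (12.3 and 6.51), both called lower. Itgax, at 0.873 and 0.635 CPM, was not called, and Csf1r, Lyz2 and Adgre1 had too few counts to be tested. CD8 T cell markers summed to 16.7 and 16.4 CPM, erythroid markers to 1.34 and 2.93, and NK cell markers to at most 0.962 in any library. No marker of these lists was at 0 in all 8 libraries. The part of these other cells in the results on ribosomal genes was not tested. Knockout libraries 1 and 4 stood apart from 2 and 3 in how their levels followed the GC content of genes, and counts with either pair alone are given below.

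The mitochondrial ribosomal genes differed little between the labels, and those that did differ went in both directions. Of the 77 members tested, 11 were called higher and 5 lower under the knockout label (edgeR's quasi-likelihood test, Benjamini-Hochberg adjusted p under 0.05 over 14428 genes), and 61 were not called. The called share was 20.8%, against 30.4% of all tested genes, with 15.7% of all genes called higher and 14.6% lower, and against 33.2% of the 6700 genes whose mean level lay in the members' range of 8.01 to 81.4 CPM. In 22 of 77 members (28.6%) the values of the labels did not overlap, against 29.2% of all tested genes. The median log2 fold change of the members was 0.06, against -0.001 for all tested genes. With library totals alone in place of TMM the split became 8 higher and 9 lower, while that of all genes went from 51.9% higher to 39.4% higher.

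Changes were also small in size. Of the tested members, 68 (88.3%) had a fold change within 1.25-fold, against 75% of the genes in the same range of levels and 66.9% of all tested genes. Only Mrpl27 and Mrpl54 had a log2 fold change of at least 0.5 in size, which made 2.60% of the members, against 11.2% of the genes in the same range and 18.5% of all tested genes. The median SD of log2 CPM between libraries of a label was 0.111 for members in the libraries labelled wild type and 0.108 in those labelled knockout, and 0.119 and 0.132 for the genes in the same range. These shares were compared as a description, with no test.

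**Figure D1:**
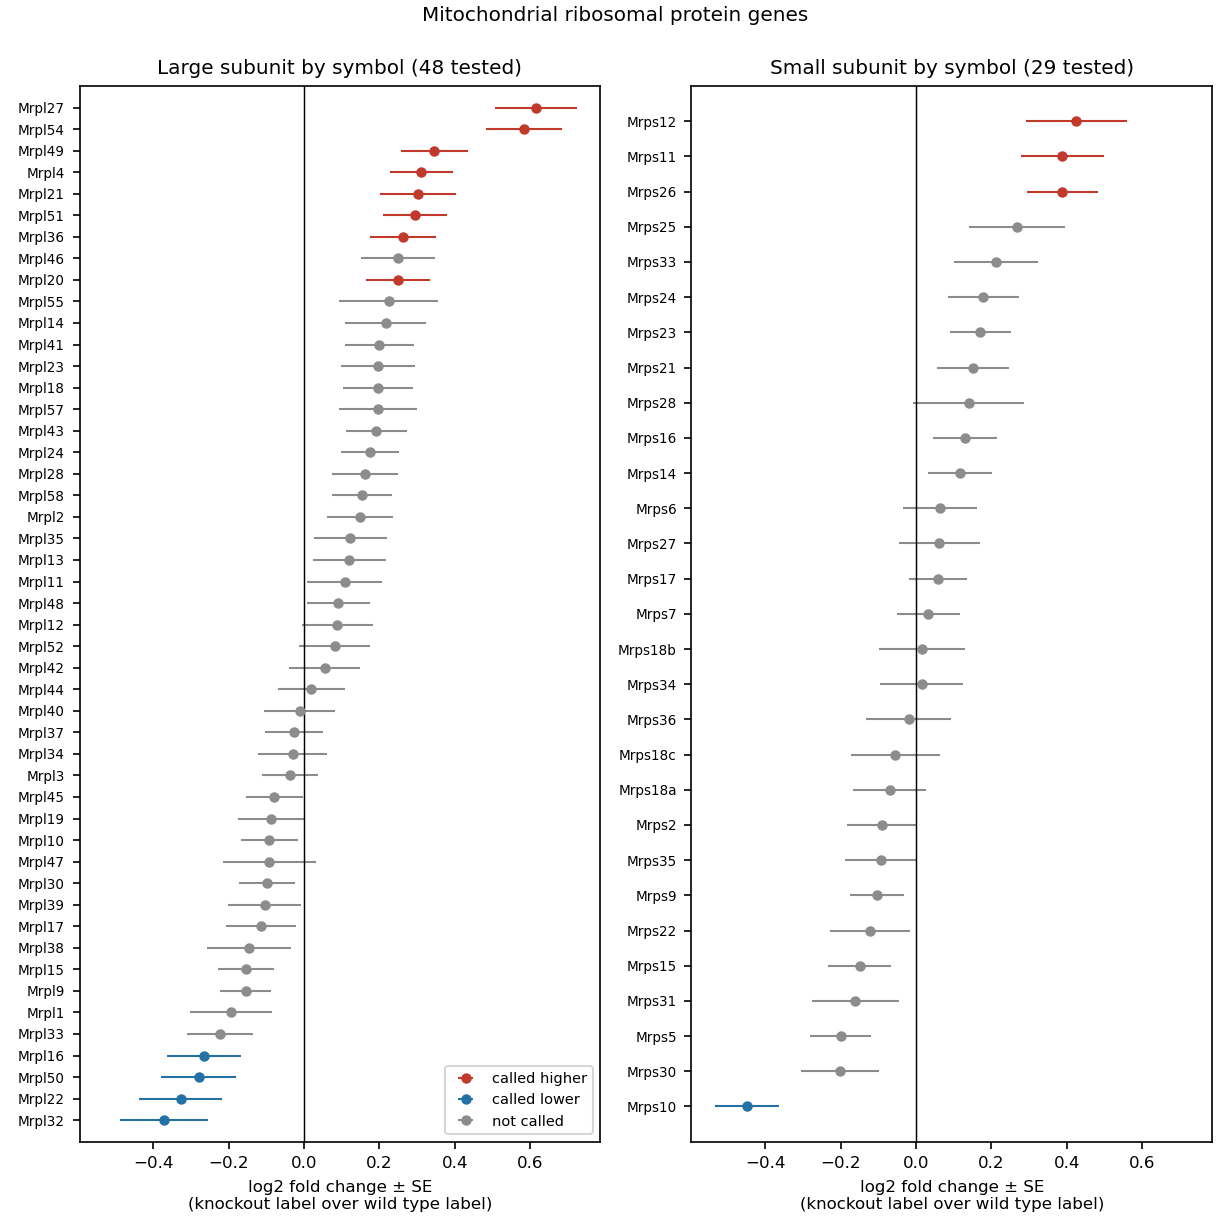
Log2 fold change (knockout label over wild type label) of the 77 tested members with its standard error, by subunit, with called members in red (higher) or blue (lower). Values run from -0.45 for Mrps10 to 0.61 for Mrpl27, and most members lie close to 0.

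By subunit, 8 of 48 tested large-subunit genes were called higher and 4 lower, with a median log2 fold change of 0.09, and 3 of 29 small-subunit genes were called higher and 1 lower, with a median of 0.03. The proteins were also placed by where they sit in the ribosome, with Mrps18a and Mrps30 in the large subunit and Mrps36 left out. This gave 8 higher and 4 lower of 50 large-subunit genes (24.0%) and 3 higher and 1 lower of 26 small-subunit genes (15.4%). Among members with a bacterial counterpart, 7 of 45 were called higher and 4 lower (24.4%, median 0.06). Among those found in mitochondria only, 4 of 30 were called higher and 1 lower (16.7%, median 0.06). Members of both kinds and both subunits were thus among those called in each direction, except that no small-subunit gene of the mitochondria-only kind was called lower (1 of 10 was called higher).

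Summed over members, large-subunit RNA stood at 775.0 ± 26.2 CPM per kilobase of gene length in the libraries labelled wild type and 828.5 ± 24.7 in those labelled knockout (mean ± SD, n = 4). Small-subunit RNA stood at 347.4 ± 15.7 and 368.2 ± 16.6 CPM per kilobase. The labels overlapped in both sums. In the large-subunit sum they did so only through wild type library 1 at 803.1 and knockout library 2 at 802.4. In the small-subunit sum, knockout library 2 at 345.5 lay within the wild type range of 324.6 to 359.5. In both sums the mean was higher under the knockout label by more than the SD within either label, which was not tested. In bulk RNA, fewer cells of a type and less RNA per cell cannot be told apart. The ratio of the large-subunit sum to the small-subunit sum was 2.23, 2.28, 2.20 and 2.21 in wild type libraries 1 to 4 and 2.23, 2.32, 2.28 and 2.18 in knockout libraries 1 to 4. These ratios overlapped between labels, and their means of 2.23 ± 0.0364 and 2.25 ± 0.0602 differed by less than the SD within either label. Members took 0.246% ± 0.00592 of all counts in the libraries labelled wild type and 0.245% ± 0.00520 in those labelled knockout.

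**Figure D2:**
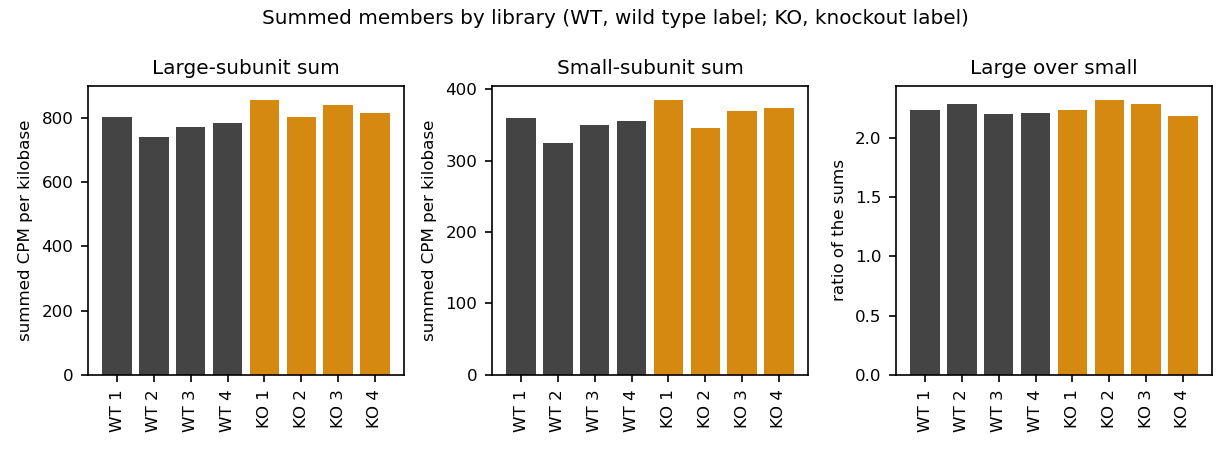
Summed CPM per kilobase of the large-subunit members (left) and small-subunit members (middle), and the ratio of the sums (right), with 1 bar per library. The ratio lies between 2.18 and 2.32 in all 8 libraries, and bars of the labels overlap in each panel.

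Levels of single members, per kilobase of gene length and over the libraries labelled wild type, ranged from 2.60 to 56.4 CPM per kilobase for large-subunit genes with reads (median 14.3) and from 2.51 to 43.2 for small-subunit genes (median 9.91). The 5 highest were Mrpl34 at 56.4 ± 4.32, Mrps21 at 43.2 ± 6.06, Mrpl45 at 32.2 ± 2.43, Mrpl10 at 31.0 ± 0.790 and Mrpl43 at 30.5 ± 1.64 CPM per kilobase (mean ± SD, n = 4). The gap between Mrpl34 and Mrps21, and that between Mrps21 and Mrpl45, exceeded the SD of either gene, while Mrpl45, Mrpl10 and Mrpl43 lay within the SD of Mrpl45 of each other. Mrpl34 and Mrps21 encode small proteins with bacterial counterparts, Mrpl45 encodes a protein by which the ribosome sits at the inner membrane, Mrpl10 encodes the base of the stalk that binds translation factors, and Mrpl43 is found in mitochondria only. The 5 lowest with reads were Mrps25 at 2.51 ± 0.558, Mrpl47 at 2.60 ± 0.0942, Mrps35 at 3.33 ± 0.377, Mrpl48 at 3.58 ± 0.0317 and Mrpl13 at 3.82 ± 0.512 CPM per kilobase. Mrps25 and Mrpl47 did not differ beyond their SD. Mrps35, Mrpl48 and Mrpl13 lay within the SD of Mrpl13 of each other. However, the gaps of Mrpl48 to Mrps35 and to Mrpl13 exceeded the SD of Mrpl48. The gap between Mrps35 and Mrpl13 exceeded the SD of Mrps35. Mrpl47 and Mrpl13 encode proteins with bacterial counterparts, and the other three belong to mitochondria only. None of these 10 genes differed between labels past the threshold, with log2 fold changes from -0.09 for Mrps35 to 0.27 for Mrps25.

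The order rests on the length used. The deposited length joins all exons of a gene, and by the median length of its coding transcripts Mrpl48 moved from rank 74 of 78 to 22, Mrpl13 from 73 to 27 and Mrpl43 from 5 to 35. Over the 77 members with reads, Spearman's rho between both orders was 0.509, as a description of the same counts divided by different lengths. Mrps25 also shares 69.8% of its exon bases with other genes, chiefly Nr2c2 on the opposite strand, Mrps34 shares 77.8%, chiefly with Mapk8ip3, and Mrpl43 shares 33.4%, chiefly with Twnk, and no strand-marking step is named for these libraries. Reads of such pairs cannot be told apart, so these levels are uncertain.

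Mrpl53, a large-subunit gene found in mitochondria only, had 0 counts in all 8 libraries and was not tested. Its exons share 88.0% of their bases with other genes, chiefly Gm42688, a read-through gene on the same strand (chromosome 6), which had 27, 14, 24 and 23 counts in wild type libraries 1 to 4 and 23, 17, 15 and 12 in knockout libraries 1 to 4. The value of Mrpl53 is therefore uncertain and no limit is drawn from it.

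The largest difference was in Mrpl27 (ENSMUSG00000024414, chromosome 11), whose bacterial counterpart reaches the site where peptide bonds form. It stood at 16.0, 15.2, 16.7 and 13.7 CPM in wild type libraries 1 to 4 and at 24.9, 20, 25.8 and 23.7 in knockout libraries 1 to 4. All 4 knockout libraries lay above all 4 wild type libraries, at 1.53-fold (log2 fold change 0.61, SE 0.11, edgeR adjusted p = 1.43e-04). Mrpl54 (ENSMUSG00000034932, chromosome 10), a large-subunit protein of mitochondria only, stood at 15.8, 14.1, 15.6 and 16.9 CPM and at 23.6, 25.2, 23.6 and 21.6 CPM in the same order. These values did not overlap either, and the fold change was 1.5 (log2 0.58, SE 0.10, edgeR adjusted p = 1.18e-04). Mrpl49, likewise of mitochondria only, stood at 25.3, 26.2, 26.9 and 29.9 CPM and at 37.9, 31.6, 34.3 and 34.0 CPM. Its labels did not overlap, and its log2 fold change was 0.35 (SE 0.09, edgeR adjusted p = 0.00521). The calls of these 3 genes held under all 20 alternatives tried.

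Mrpl4 encodes a protein whose bacterial counterpart lines the tunnel through which the new chain leaves. It stood at 67.6, 59.9, 63.0 and 61.3 CPM in wild type libraries 1 to 4 and at 86.3, 67.1, 72.4 and 86.7 in knockout libraries 1 to 4. Knockout libraries 1 and 4 were the highest, while knockout library 2 lay just under wild type library 1, so that the labels overlapped (log2 fold change 0.31, SE 0.08, edgeR adjusted p = 0.00632). With knockout libraries 2 and 3 alone the log2 fold change of Mrpl4 was 0.15, with an adjusted p of 0.175. Mrpl51, of mitochondria only, stood at 33.9, 30.0, 31.5 and 30.5 CPM and at 40.6, 34.7, 40.0 and 39.1 CPM. Its labels did not overlap, since the lowest knockout library, replicate 2, still lay above wild type library 1 (log2 fold change 0.29, SE 0.09, edgeR adjusted p = 0.0110, and 0.0733 with knockout libraries 2 and 3 alone).

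The remaining 3 large-subunit genes called higher were Mrpl21, Mrpl36 and Mrpl20, all with bacterial counterparts, of which the counterpart of Mrpl20 binds ribosomal RNA early in assembly. Mrpl21 stood at 22.3, 20.3, 22.1 and 17.9 CPM in wild type libraries 1 to 4 and at 28.0, 24.8, 25.1 and 23.9 in knockout libraries 1 to 4 (log2 fold change 0.30, SE 0.10, edgeR adjusted p = 0.0247). Mrpl36 stood at 28.8, 25.8, 27.2 and 30.6 CPM and at 35.1, 34.5, 33.9 and 31.7 CPM (log2 fold change 0.26, SE 0.09, edgeR adjusted p = 0.0246). Mrpl20 stood at 26.3, 25.3, 26.6 and 26.1 CPM and at 30.1, 32.0, 32.9 and 29.2 CPM (log2 fold change 0.25, SE 0.09, edgeR adjusted p = 0.0311). In each of the 3 the labels did not overlap, but each call depended on single libraries. That of Mrpl21 was lost without wild type library 2 or 4 or knockout library 1 (adjusted p from 0.0627 to 0.111), and that of Mrpl36 without wild type library 2 or 3 or knockout library 1 (0.0608 to 0.0863). That of Mrpl20 was lost without any of the 4 wild type libraries or without knockout library 2 or 3 (0.0527 to 0.0894). In edgeR, all 3 calls were also lost with library totals alone in place of TMM (adjusted p from 0.0576 to 0.0825). They were lost as well with offsets for transcript length (0.0561 to 0.0707). Mrpl20 (0.149) and Mrpl36 (0.0582) were lost with knockout libraries 1 and 4 alone, and Mrpl21 (0.0876) with 2 and 3 alone.

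In the small subunit, Mrps26, Mrps11 and Mrps12 were called higher. Mrps26, of mitochondria only, stood at 37.4, 30.0, 37.5 and 35.5 CPM in wild type libraries 1 to 4 and at 51.5, 40.4, 43.7 and 49.0 in knockout libraries 1 to 4. Its labels did not overlap (log2 fold change 0.39, SE 0.09, edgeR adjusted p = 0.00275). Mrps11, whose bacterial counterpart lies on the platform near the path of the mRNA, stood at 13.5, 15, 15.9 and 18.6 CPM and at 20.8, 18.9, 21.1 and 21.8 CPM. The highest wild type library, replicate 4, came close to the lowest knockout library, replicate 2, without overlap (log2 fold change 0.39, SE 0.11, edgeR adjusted p = 0.0102). With knockout libraries 2 and 3 alone, the adjusted p was 0.0666 for Mrps26 and 0.0627 for Mrps11.

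Mrps12, whose bacterial counterpart sits at the decoding centre and bears on the accuracy of reading the code, stood at 18.3, 15.3, 16.0 and 16.7 CPM in wild type libraries 1 to 4 and at 26.0, 15.1, 22.8 and 25.5 in knockout libraries 1 to 4. Knockout libraries 1, 3 and 4 lay above every wild type library and knockout library 2 below all of them, so the labels overlapped (log2 fold change 0.43, SE 0.14, edgeR adjusted p = 0.0200). The call of Mrps12 was lost without wild type library 2 or 3 or knockout library 1 or 4, with adjusted p from 0.0600 to 0.0728. With knockout libraries 2 and 3 alone its log2 fold change was 0.19.

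Mrps10 (ENSMUSG00000034729), whose bacterial counterpart is part of the head of the small subunit, was the member with the largest decrease. It stood at 42.9, 42.5, 47.7 and 44.6 CPM in wild type libraries 1 to 4 and at 32.8, 36.5, 31.6 and 29.6 in knockout libraries 1 to 4. All knockout libraries lay below all wild type libraries, a fall of 26.7% (log2 fold change -0.45, SE 0.09, edgeR adjusted p = 3.22e-04), and the call held under all 20 alternatives. Mrps10 lies on chromosome 17, as Cyp1b1 does, at a distance of 32.3 Mb. None of the other 7 members on chromosome 17 was called, including Mrps18a and Mrps18b.

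Mrpl32 encodes a protein that a protease of the inner membrane has to cut before it joins the ribosome, as shown in yeast and mouse. It stood at 21.2, 22.6, 22.9 and 22.7 CPM in wild type libraries 1 to 4 and at 14.7, 20, 20.3 and 14.1 in knockout libraries 1 to 4. The labels did not overlap, and the knockout libraries fell into a lower pair (1 and 4) and a pair close to the wild type libraries (2 and 3). The log2 fold change was -0.37 (edgeR, SE 0.12, adjusted p = 0.0202), and the call was lost without knockout library 1 (adjusted p = 0.0733) or 4 (0.0862). With knockout libraries 2 and 3 alone the log2 fold change of Mrpl32 was -0.14, with an adjusted p of 0.402.

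Mrpl22, Mrpl50 and Mrpl16 were the other large-subunit genes called lower. Mrpl22, whose bacterial counterpart lines the exit tunnel together with that of Mrpl4, stood at 22.1, 17.8, 18.3 and 19.7 CPM in wild type libraries 1 to 4 and at 17.3, 13.7, 15.8 and 15.5 in knockout libraries 1 to 4 (log2 fold change -0.33, SE 0.11, edgeR adjusted p = 0.0278). Mrpl50, of mitochondria only, stood at 25.7, 26.0, 26.4 and 25.3 CPM and at 19.6, 21.8, 25.1 and 18.9 CPM (log2 fold change -0.28, SE 0.10, edgeR adjusted p = 0.0372). Mrpl16, whose bacterial counterpart lies by the tRNA binding sites, stood at 26.5, 22.0, 23.8 and 22.4 CPM and at 20.9, 19.8, 18.1 and 20.1 CPM (log2 fold change -0.27, SE 0.10, edgeR adjusted p = 0.0433). The labels did not overlap in any of the 3, though knockout library 3 came within reach of the wild type libraries for Mrpl50. The call of Mrpl22 was lost without wild type library 1 or 4 or knockout library 2 or 4 (adjusted p from 0.0510 to 0.104). That of Mrpl50 was lost without any wild type library or without knockout library 1 or 4 (0.0521 to 0.128). That of Mrpl16 was lost without wild type library 1 or 3 or knockout library 2, 3 or 4 (0.0610 to 0.143). In edgeR with no low-count filter, all 3 calls were lost (adjusted p from 0.0878 to 0.175). DESeq2 kept Mrpl22 but not Mrpl50 (adjusted p = 0.0549) or Mrpl16 (0.0709). With knockout libraries 2 and 3 alone, edgeR's adjusted p was 0.396 for Mrpl50 and 0.0532 for Mrpl16. With 1 and 4 alone it was 0.152 for Mrpl22 and 0.184 for Mrpl16.

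**Figure D3:**
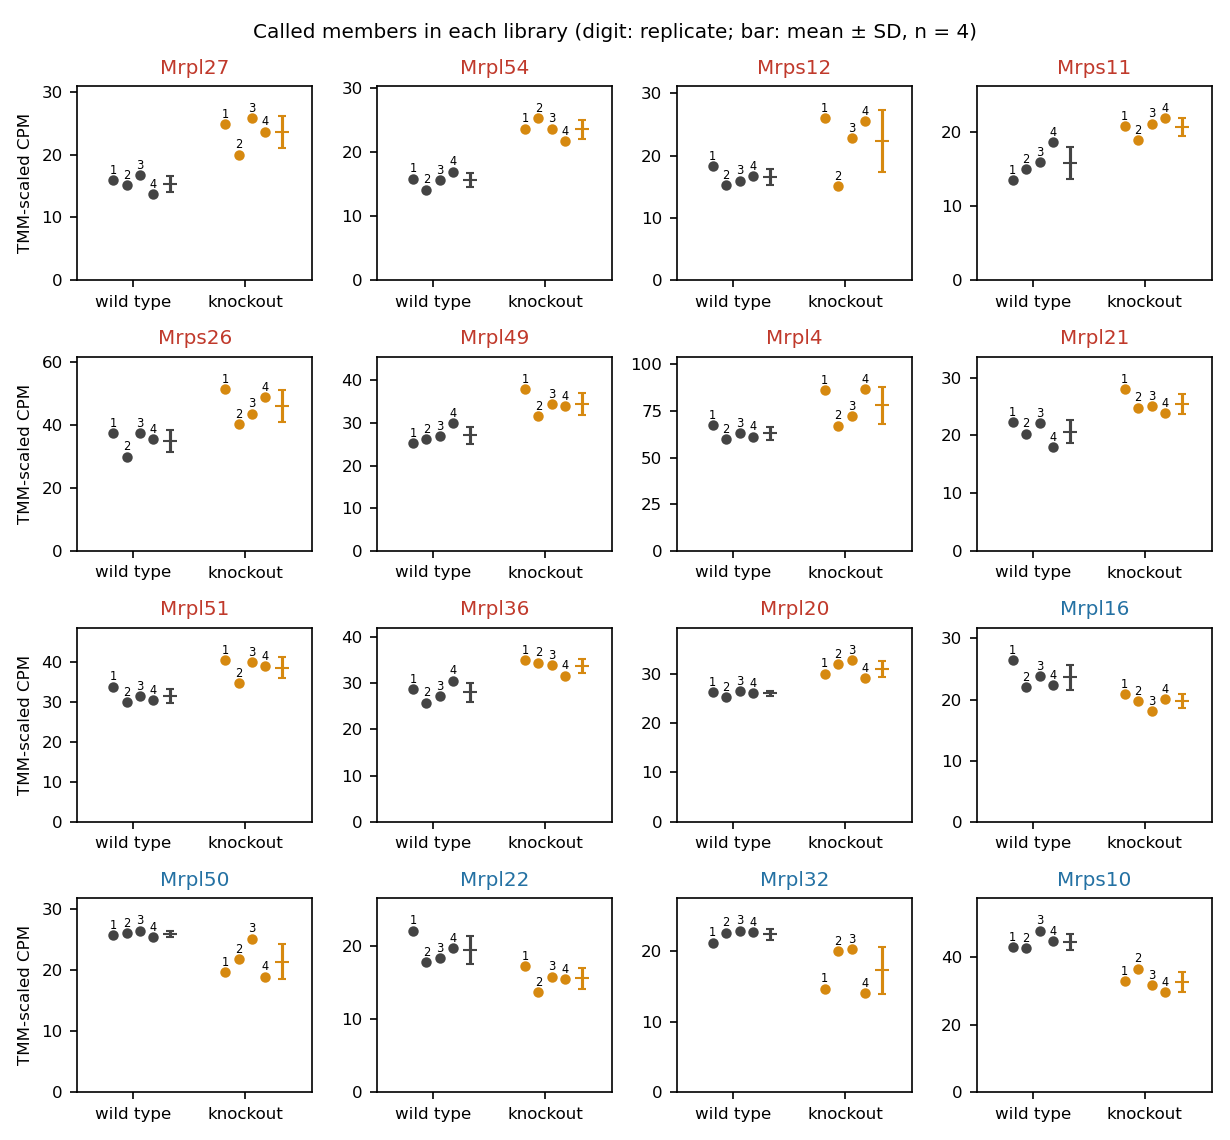
TMM-scaled CPM of the 16 called members in each library, with replicate numbers above the points and mean ± SD (n = 4) beside them, and with gene names in red for called higher and blue for called lower. Labels overlap in Mrpl4 and Mrps12, and knockout libraries 2 and 3 lie nearer to the wild type libraries than 1 and 4 do in Mrpl32.

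Several members with functions beyond the core of the ribosome were not called. Mrpl12, which forms the stalk that recruits translation factors, had a log2 fold change of 0.09 (edgeR, SE 0.09, adjusted p = 0.512). Mrpl58, a subunit that can release the chain from stalled ribosomes, ran from 33.6 to 39.0 CPM under the wild type label and from 39.4 to 41.3 under the knockout label. These ranges did not overlap, yet the gene missed the threshold (log2 fold change 0.15, SE 0.08, edgeR adjusted p = 0.152). The 3 relatives of bacterial S18 stood at log2 fold changes of -0.07 (Mrps18a), 0.02 (Mrps18b, -0.04 with library totals alone) and -0.06 (Mrps18c), each within its SE. Mrps36 stood at -0.02 (SE 0.11).

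Mrps30, whose protein sits in the large subunit, stood at 31.5, 29.4, 32.2 and 31.8 CPM in wild type libraries 1 to 4 and at 24.4, 33.6, 27.4 and 23.3 in knockout libraries 1 to 4. Knockout library 2 was the highest of all 8 and the other 3 knockout libraries were the lowest, so the labels overlapped (log2 fold change -0.20, SE 0.10, edgeR adjusted p = 0.145). Without knockout library 2, Mrps30 passed the threshold, at -0.32 (adjusted p = 0.0123).

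Of the 33 members with a head-to-head neighbour, 8 were called higher and 2 lower, a share of 30.3% next to 30.4% of all tested genes, and of the 44 tested members without one, 3 were called higher and 3 lower (13.6%). The difference between these shares was not tested. Of the 31 neighbours that were tested, 5 were called higher and 5 lower (32.3%), a share close to that of all tested genes. These neighbours include 2 members, Mrps11, called higher, and Mrpl46, not called. In 21 of these 31 pairs, the Mrps11 and Mrpl46 pair counted from each side, both fold changes had the same sign. The share of such pairs among other head-to-head genes was not worked out, so nothing is drawn from this count. In 3 pairs both genes were called, and in these both were higher. Mrpl27 starts 197 bases from Eme1, which encodes part of a DNA endonuclease (log2 fold change 0.52, SE 0.12, edgeR adjusted p = 0.00199, and 0.0800 with knockout libraries 2 and 3 alone). Mrpl54 starts 26 bases from Apba3, which encodes an adaptor protein (0.68, SE 0.10, edgeR adjusted p = 1.01e-05). Mrpl51 starts 100 bases from Ncapd2, which encodes a subunit of condensin I (0.54, SE 0.06, edgeR adjusted p = 6.61e-07). Mrpl27 shares 7.61% of its exon bases with other genes, chiefly Eme1 on the opposite strand, Mrpl54 shares none, and Mrpl51 shares 2.15%, chiefly with Mir3098.

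In other pairs only the neighbour or only the member was called. Mtbp, beside Mrpl13, was higher (0.70, SE 0.09, edgeR adjusted p = 2.50e-06) where Mrpl13 stood at 0.12 and was not called. Wdfy1, beside Mrpl44, was lower at -0.82 where Mrpl44 stood at 0.02, and Pnpla7, beside Mrpl41, was lower at -0.53 where Mrpl41 stood at 0.20. Psma2, which encodes a proteasome subunit and starts 75 bases from Mrpl32, stood at 0.14 and was not called, while Mrpl32 was lower. Mrps11 and Mrpl46 start 412 bases apart on opposite strands, so that a small-subunit gene and a large-subunit gene overlap at their starts. Mrpl46 stood at 0.25 and missed the threshold (edgeR adjusted p = 0.0558), next to 0.39 for Mrps11. The exon bases shared with other genes, chiefly with each other on opposite strands, were 12.2% for Mrpl46 and 7.97% for Mrps11, so part of their reads may be common to both.

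**Figure D4:**
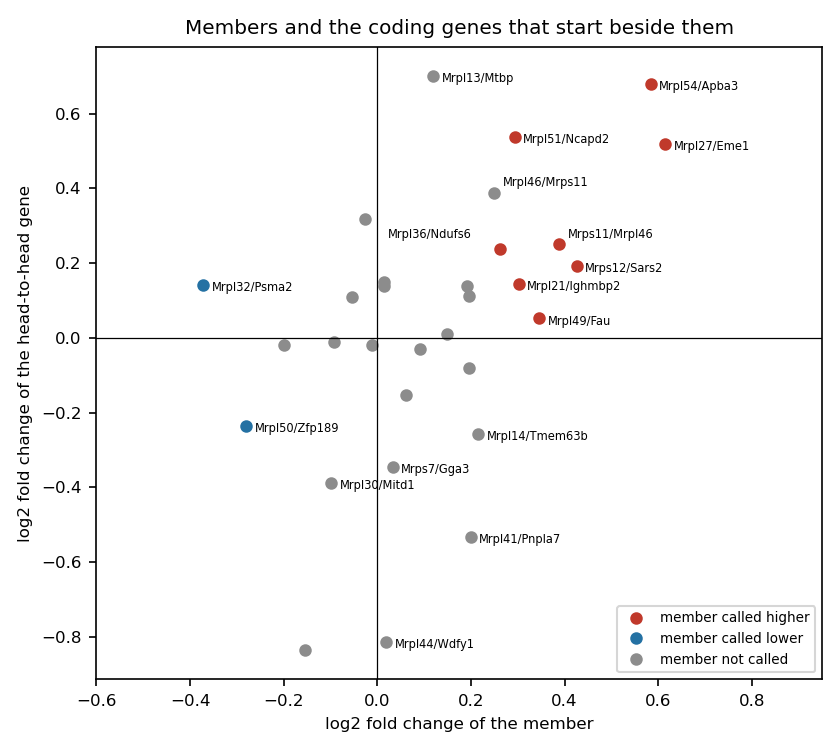
Log2 fold change (knockout label over wild type label) of a member (x axis) and of the coding gene that starts head to head with it within 1000 bases (y axis), for the pairs in which both genes were tested. Pairs where either gene was called are named, and the Mrps11 and Mrpl46 pair appears once from each side.

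Some members overlap other genes, whose reads they may share. Of the 32 tested members that share any exon base with another gene, 7 were called higher and none lower, and of the 45 that share none, 4 were called higher and 5 lower. Their called shares were 21.9% and 20%, against 30.4% of all tested genes, and their median log2 fold changes were 0.11 and -0.02. All 5 members called lower, and Mrpl54, Mrpl4, Mrps12 and Mrpl20 among those called higher, share no exon base with another gene. Among the 37 members whose span overlaps no other gene at all, 4 were called higher and 5 lower, with a median of 0.06. These differences were not tested.

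GC content and transcript length moved with the fold changes. Over the 77 members, Spearman's rho of the log2 fold change was 0.408 with GC content and -0.359 with the length of the longest transcript, against 0.170 and -0.098 over 6307 coding genes in the same range of levels. Members called higher had a median GC content of 51.5%, those called lower 43.6% and those not called 49.8%. The members were split by GC content into low, middle and high groups. Of 26 low-GC members, 1 was called higher and 3 lower (15.4% called). Of 25 in the middle, 5 were called higher and 2 lower (28.0%). Of 26 high-GC members, 5 were called higher and none lower (19.2%). Across all tested genes 30.4% were called, and their share by GC group was not worked out. Genes share libraries and are not independent, so the correlations are given without a test.

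The trend differed between libraries. Over the members, Spearman's rho between GC content and the deviation of a library from the gene's mean was 0.487 in knockout library 1 and 0.494 in knockout library 4, against -0.168 in knockout library 2 and 0.142 in knockout library 3. In wild type libraries 1 to 4 it was -0.149, -0.340, -0.459 and -0.195. Knockout libraries 1 and 4 thus stood highest of the 8, as they did over 14415 tested genes, at 0.315 and 0.363. With offsets that remove the GC trend from each library, 12 members were called higher and 6 lower, and 14 of the 16 calls were kept, Mrpl16 (adjusted p = 0.135) and Mrpl50 (0.0517) being the exceptions. With offsets for transcript length, 8 members were called higher and 6 lower, and 13 of the 16 calls were kept. With knockout libraries 1 and 4 alone, 15 members were called higher and 6 lower. With knockout libraries 2 and 3 alone, 7 were called higher and 2 lower. Calls among all tested genes fell as well, from 5062 of 15333 with libraries 1 and 4 to 3428 of 15327 (22.4%) with 2 and 3. The share of all tested genes called was 34.3% with GC offsets and 30.4% with length offsets, against 30.4% in the main fit.

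**Figure D5:**
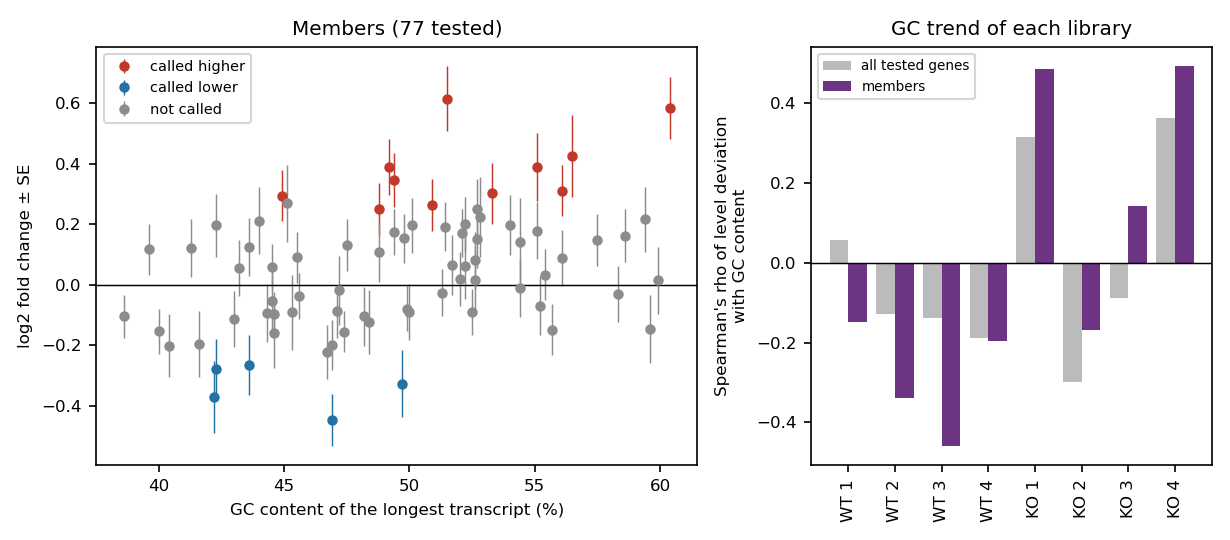
Left, log2 fold change ± SE of the 77 tested members against the GC content of the longest transcript. Right, Spearman's rho between GC content and the deviation of each library from the mean level of a gene, over all tested genes (grey) and over members (purple), highest in knockout (KO) libraries 1 and 4 and lower in KO 2, KO 3 and the wild type (WT) libraries.

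Among lists of genes that act with these proteins, between 0 and 1 gene of each was called, in a comparison that called 30.4% of all tested genes, and no list was tested against the other genes. Of the 5 ribosomal subunits that carry no Mrp symbol (Dap3, Ptcd3, Chchd1, Aurkaip1 and Gadd45gip1), edgeR, DESeq2 and limma-voom called none, with 2 at an unadjusted p under 0.05, Dap3 (log2 fold change 0.17, adjusted p = 0.0642) and Chchd1 (-0.21, adjusted p = 0.0944). In edgeR, 1 of the 5 was called with library totals alone, no low-count filter, the replicate number as a block, or length offsets. With knockout libraries 1 and 4 alone, 2 of the 5 were called. Of 25 genes for assembly of the ribosome and modification of its RNA, Malsu1 alone was called. Malsu1, which keeps the young large subunit from joining the small one too early, stood at 24.2 ± 0.934 CPM under the wild type label and 18.5 ± 1.15 under the knockout label (log2 fold change -0.39, SE 0.10, edgeR adjusted p = 0.00334). Of 15 tested translation factors and genes for mRNA handling, Tsfm alone was called, the exchange factor of the mitochondrial elongation factor Tu, at 25 ± 2.99 and 19.5 ± 1.32 CPM (-0.35, SE 0.10, edgeR adjusted p = 0.0125). Without wild type library 2 the adjusted p of Tsfm was 0.0513, so that none of the 15 was called. Calls in the assembly list rose to 2 without wild type library 1 or 2 or knockout library 1, and to 3 without knockout library 2 or with library totals alone, and calls among translation factors to 2 without knockout library 1 or with library totals alone.

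Of 7 genes for transcription of mitochondrial DNA, edgeR, DESeq2 and limma-voom called none, with 0 at an unadjusted p under 0.05 in edgeR. Of these 7, edgeR called 2 with knockout libraries 2 and 3 alone and 1 with GC offsets. Of the 12 tested protein genes of mitochondrial DNA, which are what this ribosome translates, mt-Cytb, a subunit of complex III, was called. It stood at 1216.9, 1738.6, 1709.1 and 1892.9 CPM in wild type libraries 1 to 4 and at 2030.0, 2374.6, 2250.6 and 1941.4 in knockout libraries 1 to 4. Its labels did not overlap, with wild type library 1 far below the others (log2 fold change 0.39, SE 0.13, edgeR adjusted p = 0.0445). The call of mt-Cytb was lost without wild type library 2 or 3 or knockout library 1, 2 or 3, with adjusted p from 0.0539 to 0.143. It was also lost with limma-voom (0.0615), library totals alone (0.0888) and offsets for transcript length (0.173), while DESeq2 kept it. The edgeR adjusted p of mt-Cytb was 0.336 with knockout libraries 1 and 4 alone and 0.157 with 2 and 3 alone. Without wild type library 1, 4 of the 12 genes were called. Capture of polyadenylated RNA bears on mitochondrial transcripts, whose tails are short, so their levels are not compared with those of nuclear genes.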

How the data were processed

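RNA from the cultured CD4 T cells of 8 samples was sequenced after capture of polyadenylated RNA, per the labels' protocols, with random-primed cDNA and no strand-marking step named. The authors deposited raw counts per gene, with symbols, positions, lengths and biotypes, and these are whole numbers that were not normalized. The submitters' processing notes name fastp, with its version not stated. For the aligner, counter, strand setting and genome build, nothing is given in the sources used here. Of 54532 genes, 53585 have the same start and end in GENCODE M21 (GRCm38), which supplied exon overlaps, GC content and transcript lengths. Within each label, every pair of replicates differed beyond sampling noise (chi-square per gene from 3.69 to 12.3), and depth ran from 8918342 to 15667313 counts per library, with no molecular identifiers.

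The fit was made with edgeR 4.0.16 in R 4.3.3 (filterByExpr with minimum count 10 and minimum total 15, TMM, robust quasi-likelihood F-test, two-sided, label alone in the model), which left 14428 genes, with Benjamini-Hochberg adjustment over all of them and a threshold of 0.05. Each standard error is the size of the log2 fold change divided by the root of its F. The biological coefficient of variation was 0.0895. Tables were made in Python 3.11.15 with pandas 2.3.3. Reads of overlapping genes may not have been told apart.

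The members and lists were chosen with earlier results of these data known. Genes were named by a rule: every called member; the 5 highest and 5 lowest per kilobase in the libraries labelled wild type; Mrpl12, Mrpl32, Mrpl58, Mrps18a, Mrps18b, Mrps18c, Mrps30 and Mrps36 always; members that failed the filter; and up to 3 called genes per list. Neighbouring genes, Mrpl46, and the list genes at an unadjusted p under 0.05 were named after their values were seen. Alternatives were other scalings (DESeq2 size factors, library totals), filters (none, or CPM of at least 1 in 4 libraries), DESeq2 1.42.0, limma-voom 3.58.1, protein-coding genes alone, a block for the replicate number, each library left out, and knockout libraries 1 and 4 or 2 and 3 alone. Offsets for GC content and for transcript length (20 bins), and the transcript length as the scale of the subunit ratio, were chosen after seeing the data.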

Additional observations from a re-analysis of the deposited data

Results flagged for a closer look

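Of 74 groups of 4 libraries screened, 1 held a library far from the others: Mrpl32 in the libraries labelled wild type, where library 1 stood at 21.2 CPM and the other 3 at 22.6 to 22.9 CPM. Chance gives such a result in about 1 in 20 groups. The gap was small next to the difference from knockout libraries 1 and 4, at 14.7 and 14.1 CPM.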

How the results depend on the processing

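The calls of Mrpl27, Mrpl54, Mrpl49 and Mrps10 held under all 20 alternatives, and those of Mrpl4, Mrpl51, Mrps11 and Mrps26 under all but knockout libraries 2 and 3 alone. Members called higher numbered 7 with knockout libraries 2 and 3 alone, 4 among those overlapping no other gene (37 of 77 tested), and 7 to 14 with 1 library left out. Members called lower numbered 9 with library totals alone, 2 with no low-count filter, 2 with knockout libraries 2 and 3 alone, 3 with DESeq2, and 1 (without knockout library 4) to 5 with 1 library left out. Large-subunit calls numbered 7 with knockout libraries 2 and 3 alone and 8 to 13 with 1 library left out. Small-subunit calls numbered 2 with knockout libraries 2 and 3 alone, 7 with GC offsets and 3 to 6 with 1 library left out. The called share of all tested genes shifted as well, from 30.4% in the main fit. It was 30.7% with library totals alone, 22.4% with knockout libraries 2 and 3 alone and 34.3% with GC offsets. With 1 library left out it was 24.2% to 31.8%. With no low-count filter it was 14.1%, over 31288 genes. DESeq2 called 13.2% of the 31288 genes with any count. That base may include genes of low counts that received no adjusted p, so the DESeq2 share is not on the same footing as the others. The median of the small subunit was -0.018 with library totals alone and 0.082 with knockout libraries 1 and 4 alone, and with 1 library left out the medians ran from 0.031 (without wild type library 2) to 0.111 for the large and 0.013 to 0.070 for the small subunit. The ratio of the subunit sums, knockout over wild type label, stayed between 0.988 and 1.030. The cause of these shifts was not tested. Signs turned for uncalled members near 0. Mrps18b stood at -0.036 with library totals alone, -0.089 with knockout libraries 2 and 3 alone, -0.001 with protein-coding genes alone, -0.035 with GC offsets, -0.043 with length offsets, and -0.044 to 0.083 with 1 library left out. Mrpl34 stood at 0.008 with no filter, 0.020 with knockout libraries 1 and 4 alone and -0.086 to 0.039 with 1 library left out. Mrps36 stood at 0.019 with no filter, 0.033 with knockout libraries 2 and 3 alone and -0.086 to 0.044 with 1 library left out. Mrps18a stood at 0.055 and Mrpl10 at 0.001 with knockout libraries 1 and 4 alone, and Mrps18a at -0.125 to 0.001 with 1 library left out. Mrpl12 stood at -0.001 and Mrpl45 at 0.013 with knockout libraries 2 and 3 alone. With the replicate number as a block (replicate block), 13 members were called higher and 6 lower, next to 34.2% of all tested genes called. All 16 calls were kept and Mrpl33, Mrpl46 and Mrps25 were added. Deviations from the mean of each label correlated at 0.051 to 0.091 between libraries of the same number. Other pairs of libraries across labels correlated at -0.093 to 0.057. The labels do not say what equal numbers share, and this was not tested.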
